A study of Mus musculus with 4 samples.

Results

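Histone genes were examined upon RNAi against Zfp322a, which encodes a zinc finger protein, in the mouse embryonic stem (mES) cell line E14. The arrays read 45037 probe sets, groups of short probes that each report on a transcript, and 34945 of them carried a single gene symbol. A probe set was taken as a histone probe set when that symbol, in its current or older form, began with Hist1, Hist2, Hist3, Hist4, H1f, H2af or H3f3. This gave 35 probe sets of 24 genes. The annotation used newer names, such as H2bc18 for Hist2h2bb, and by the current symbols alone the rule would have held 11 probe sets of 8 genes, so that older symbols were looked up through the Entrez ID. The replication-dependent clusters gave 16 probe sets of 11 genes, of which Hist1 held 9 probe sets of 7 genes, Hist2 held 5 of 3 genes and Hist3 held 2 of 1 gene. The variants and the linker histones outside these clusters gave 19 probe sets of 13 genes. A further 27 histone probe sets that carried several symbols were left out of the counts and are described separately.

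The Zfp322a RNAi group held 2 arrays of E14 cells transfected with a plasmid for an shRNA against Zfp322a, and the control RNAi group held 2 arrays of E14 cells transfected with pSuper.puro. All 4 samples were grown with serum and leukaemia inhibitory factor (LIF), put under puromycin for 3 days (from the labels) and harvested as a pool of transfected cells. The study describes a pair of shRNAs, and the labels do not say which was used here. Nor do they call the samples of a group separate cultures, and p-values therefore measure the spread between these arrays, which may be technical. In total RNA of a whole culture, fewer cells that express a gene and less RNA per cell cannot be told apart.

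Histones wrap DNA into nucleosomes. The core histones H2A, H2B, H3 and H4 form the nucleosome particle, and the linker histone H1 binds the DNA where it enters and leaves. Replication-dependent genes lie in clusters and are transcribed in S phase, when new DNA has to be packaged. Their mRNAs typically end in a stem-loop bound by SLBP in place of a poly(A) tail. Variant genes, such as those for H2A.Z, macroH2A and H3.3, lie outside the clusters, typically give polyadenylated mRNAs and are expressed through the cell cycle. The mRNA of H2ax, the variant phosphorylated at DNA breaks, occurs in both forms. Standard Affymetrix labelling starts from the poly(A) tail, and no source used here names the primer, so that the share of the stem-loop mRNAs read by these arrays is unknown.

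The targeted gene was lower on both Zfp322a RNAi arrays. One of its probe sets (1452374_at) gave log2 values of 7.08 and 6.89 in Zfp322a RNAi cells, against 8.82 and 8.89 in control RNAi cells, which left 27.4% of the control level (limma, change -1.87 ± 0.09 (SE), adjusted p = 0.000935). The other (1439035_at) gave 7.53 and 7.13 in Zfp322a RNAi cells, against 8.75 and 8.84 in control RNAi cells, which left 36.2% (change -1.47 ± 0.14, adjusted p = 0.0022). Array medians lay between 6.07 and 6.11, and Pearson's r over all probe sets was 0.9975 within Zfp322a RNAi, 0.9976 within control RNAi and 0.9887 to 0.99 across the groups. Of 8 mES cell markers, 0 were higher and 2 lower (Tdgf1 -0.59 and Esrrb -0.41), and all 8 lay between 10.6 and 14.3 in control RNAi cells. Of 8 fibroblast and feeder cell markers, 0 were higher and 2 lower (Pdgfrb -0.87 and Thy1 -0.56). Their log2 summed level was 8.54 and 8.54 in Zfp322a RNAi cells, against 9.00 and 8.98 in control RNAi cells. Of 4 germ cell markers, 3 were higher (Sycp3 1.17, Dazl 0.73 and Ddx4 0.57), with a log2 summed level of 13.0 and 13.0 in Zfp322a RNAi cells, against 12.2 and 12.1 in control RNAi cells. For scale, 12.2% of all 18193 genes were higher and 11.5% lower by the brightest probe set of each gene. The part of these markers in the histone results was not tested.

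Upon Zfp322a depletion, probe sets of the replication-dependent clusters were up-regulated more often than down-regulated. Those of the variants had calls in both directions. With limma and Benjamini-Hochberg adjustment over all 45037 probe sets, 6 of the 16 cluster probe sets rose and 0 fell. They belonged to 5 genes, H3c7, H1f2, H2bc18, H2aw and H2bc22. Among the 19 variant probe sets 1 rose (H2az2), 2 fell (H1f10 and H2aj) and 16 were not called. Over all probe sets 10.6% were higher and 9.47% were lower. Beside this, 37.5% of the cluster probe sets and 5.26% of the variant probe sets stood in the higher calls, and 0% and 10.5% in the lower calls. With counts this small, the shares of the variants are not read as differing from those of all probe sets. With dim probe sets left out, 2 of 12 variant probe sets rose and 5 fell, beside 5087 higher and 5155 lower of all 22530. With a variance trend in limma, 2 of 19 variant probe sets rose and 5 fell, and 1 of 16 cluster probe sets fell. In that setting 6011 of all 45037 were higher and 5609 lower. No test of one class against the other was made. Without any 1 of the 4 arrays, a group is left with 1 array and the spread comes from the other group alone, and limma then called 0 of the 45037 probe sets (10572 to 11509 had an unadjusted p under 0.05).

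The single arrays were also compared without a test. Both Zfp322a RNAi arrays lay above both control RNAi arrays for 13 of the 16 cluster probe sets and below them for 2, whereas 25.1% of all probe sets lay above and 32.4% below. For the variants the counts were 5 above and 11 below of 19. The median log2 change was 0.30 in the clusters (range -0.43 to 1.03) and -0.13 in the variants (range -0.47 to 0.46), beside -0.03 over all probe sets. The mean log2 value of the 16 cluster probe sets was 6.41 and 6.43 on the Zfp322a RNAi arrays, against 6.15 and 6.07 on the control RNAi arrays. The mean of the 19 variant probe sets was 7.83 and 7.86 on the Zfp322a RNAi arrays, against 7.90 and 7.93 on the control RNAi arrays. In each class the class means of both Zfp322a RNAi arrays lay on the same side of those of both control RNAi arrays.

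**Figure D1:**
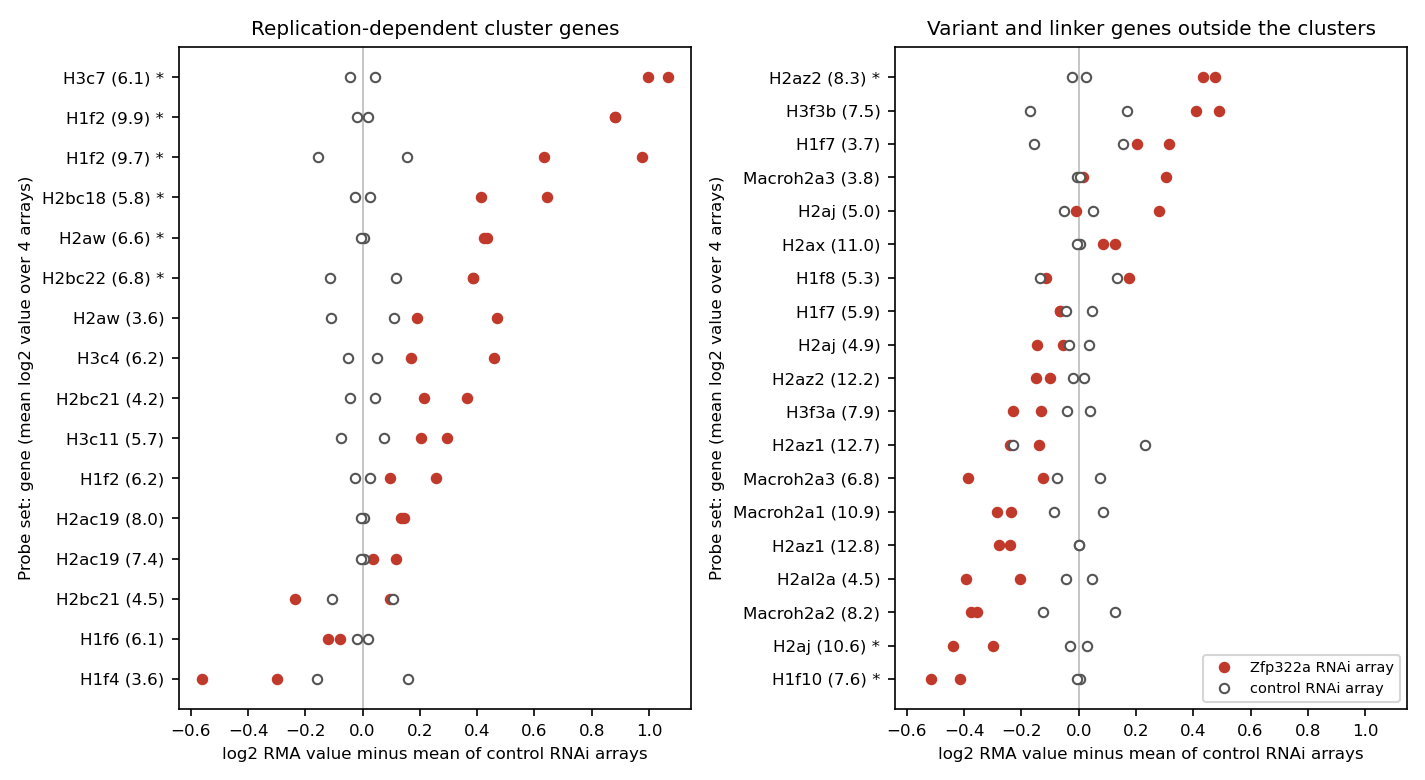
Each row is a histone probe set, with its gene and its mean log2 value over the 4 arrays in brackets, and the horizontal axis is the difference of an array's log2 RMA value from the control RNAi mean (filled points, Zfp322a RNAi, open points, control RNAi, n = 2 each). An asterisk marks a limma adjusted p under 0.05. For 13 of 16 cluster probe sets both filled points lie to the right of both open points, and for 11 of 19 variant probe sets they lie to the left. Such positions were held by 25.1% (right) and 32.4% (left) of all probe sets.

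Of the linker histone genes in the Hist1 cluster, H1f2 rose and H1f4 and H1f6 did not pass the test. H1f2 (Hist1h1c), which encodes the somatic linker H1.2, was read by 3 probe sets. The first (1416101_a_at) gave log2 values of 10.33 and 10.33 in Zfp322a RNAi cells, against 9.43 and 9.47 in control RNAi cells. This was a 1.84-fold rise (limma, change 0.88 ± 0.08, adjusted p = 0.00178). The second (1436994_a_at) gave 10.23 and 9.89 in Zfp322a RNAi cells, against 9.41 and 9.10 in control RNAi cells, a 1.75-fold rise with a wider spread within each group (change 0.81 ± 0.15, limma adjusted p = 0.0153). The third (1438204_at) gave 6.21 and 6.37 in Zfp322a RNAi cells, against 6.14 and 6.09 in control RNAi cells, and did not pass the test (change 0.18, 95% interval -0.04 to 0.39, limma adjusted p = 0.235). On each of the 3 both Zfp322a RNAi arrays lay above both control RNAi arrays, as they did for 25.1% of all probe sets. H1f4 (Hist1h1e), which encodes the somatic linker H1.4, ran the other way with 3.29 and 3.55 in Zfp322a RNAi cells, against 4.01 and 3.69 in control RNAi cells, and did not pass the test (change -0.43 ± 0.14, limma adjusted p = 0.0834). H1f6 (Hist1h1t), the testis linker gene of the cluster, gave a change of -0.10 with an interval of -0.29 to 0.09.

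Of the 3 probe sets for H3 genes of the clusters 1 rose. H3c7 (Hist1h3f, 1431231_at) gave log2 values of 6.54 and 6.61 in Zfp322a RNAi cells, against 5.59 and 5.5 in control RNAi cells, and rose 2.04-fold (limma, change 1.03 ± 0.08, adjusted p = 0.00154). The other H3 genes, H3c4 and H3c11, did not pass the test. H3c4 (Hist1h3d) gave 6.46 and 6.17 in Zfp322a RNAi cells, against 6.05 and 5.95 in control RNAi cells (change 0.32 ± 0.11, limma adjusted p = 0.115). H3c11 (Hist1h3i) gave 5.77 and 5.86 in Zfp322a RNAi cells, against 5.64 and 5.49 in control RNAi cells (change 0.25 ± 0.09, limma adjusted p = 0.109). All 3 H3 probe sets had both Zfp322a RNAi arrays above both control RNAi arrays, as had 25.1% of all probe sets.

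Of the 4 probe sets for H2B genes 2 rose. H2bc18 (Hist2h2bb, 1425868_at) gave log2 values of 5.99 and 6.22 in Zfp322a RNAi cells, against 5.60 and 5.55 in control RNAi cells, a 1.44-fold rise (limma, change 0.53 ± 0.10, adjusted p = 0.0158). H2bc22 (Hist1h2bp, 1427762_x_at) gave 6.96 and 6.96 in Zfp322a RNAi cells, against 6.46 and 6.69 in control RNAi cells, a 1.31-fold rise (change 0.39 ± 0.10, limma adjusted p = 0.0425). Its suffix _x_at marks probes that can also bind other members of the family, so that the gene behind this value is uncertain. H2bc21 (Hist2h2be) was read by 2 probe sets that differed in sign. Probe set 1455095_at gave 4.28 and 4.43 in Zfp322a RNAi cells, against 4.02 and 4.11 in control RNAi cells (change 0.29 ± 0.09, limma adjusted p = 0.0726). Probe set 1447854_s_at overlapped between the groups, with 4.58 and 4.25 in Zfp322a RNAi cells, against 4.59 and 4.38 in control RNAi cells (change -0.07, limma adjusted p = 0.773).

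Of the 4 probe sets for H2A genes of the clusters 1 rose. H2aw (Hist3h2a, 1435866_s_at) gave log2 values of 6.79 and 6.80 in Zfp322a RNAi cells, against 6.37 and 6.36 in control RNAi cells, a 1.35-fold rise (limma, change 0.43 ± 0.07, adjusted p = 0.0119). Its other single-symbol probe set (1455712_at) lay on the same side without passing the test, with 3.59 and 3.87 in Zfp322a RNAi cells, against 3.51 and 3.29 in control RNAi cells (change 0.33 ± 0.13, limma adjusted p = 0.129). A brighter probe set shared by H2aw and Trim17 (1435865_at, mean 8.95) overlapped between the groups (change 0.10, limma adjusted p = 0.582). The call of H2aw thus rested on 1 probe set, whose suffix _s_at marks possible binding to related transcripts. H2ac19 (Hist2h2aa2) passed with neither probe set, and the changes were 0.14 (interval -0.04 to 0.32) and 0.08 (interval -0.11 to 0.26). Signal was low for many of these genes, since 7 of the 16 cluster probe sets and 7 of the 19 variant probe sets had a mean under 6.09, the median over all probe sets. Among the 9 cluster probe sets at or over that median 4 rose and 0 fell, and among the 12 variant probe sets 1 rose and 2 fell. At such levels 17.3% of all probe sets were higher and 15.6% lower.

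The methods of the study set a cutoff of 1.5-fold without a test. By this cutoff 3 cluster probe sets were higher (H3c7 and 2 of H1f2) and 0 were lower. For the variants 0 were higher and 0 lower. Over all probe sets 4.67% were higher and 2.64% lower by this cutoff.

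**Figure D2:**
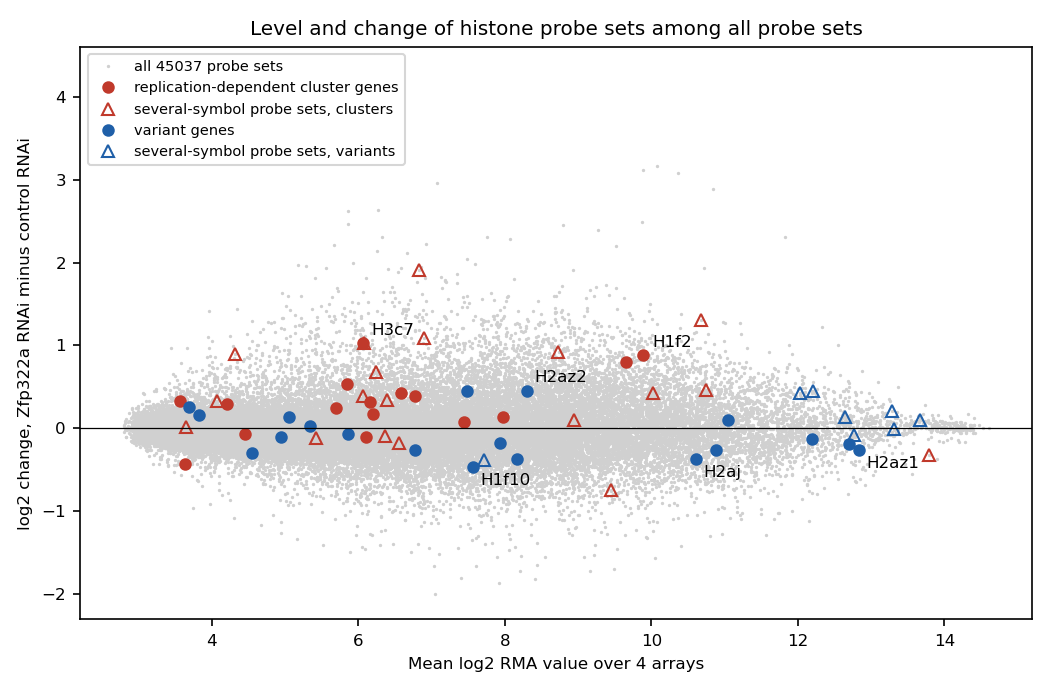
The horizontal axis is the mean log2 RMA value over 4 arrays and the vertical axis the log2 change, Zfp322a RNAi minus control RNAi, for all 45037 probe sets (grey) and the histone probe sets (colours, with triangles for probe sets of several symbols). The H1f2 and H3c7 points stand at 0.88 and 1.03, and no variant point lies beyond 0.46 in either direction except H1f10 at -0.47.

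Among the variants, the linker gene H1f10 had the largest fall. H1f10 (H1fx, 1436517_at), which encodes the somatic linker H1x, gave log2 values of 7.38 and 7.28 in Zfp322a RNAi cells, against 7.80 and 7.79 in control RNAi cells. This left 72.5% of the control level (limma, change -0.47 ± 0.08, adjusted p = 0.0115). H1f7, a linker gene of spermatids, gave changes of -0.07 and 0.26 on its 2 probe sets, and H1f8, the linker gene of oocytes, gave 0.03 with an interval of -0.30 to 0.36. None of these 3 probe sets passed the test.

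H2aj, which encodes the variant H2A.J, was read by 3 probe sets of which 1 fell. That probe set (1424771_at) gave log2 values of 10.49 and 10.35 in Zfp322a RNAi cells, against 10.82 and 10.76 in control RNAi cells, and left 77.4% of the control level (limma, change -0.37 ± 0.09, adjusted p = 0.0309). The dimmer probe sets, with means of 4.95 and 5.05, gave -0.10 and 0.14 and did not pass. With all 3 averaged the change of H2aj was -0.11 (limma adjusted p = 0.261).

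H2A.Z, a variant found at promoters, is encoded by H2az1 and H2az2. H2az1 did not pass the test with either probe set. Probe set 1438091_a_at gave log2 values of 12.69 and 12.73 in Zfp322a RNAi cells, against 12.97 and 12.97 in control RNAi cells (change -0.26 ± 0.08, limma adjusted p = 0.0599). Probe set 1438092_x_at gave 12.65 and 12.55 in Zfp322a RNAi cells, against 13.02 and 12.56 in control RNAi cells, so that the groups overlapped (change -0.19 ± 0.15, limma adjusted p = 0.457). For H2az2 the 2 probe sets ran in opposite directions. Probe set 1436596_at gave 8.55 and 8.51 in Zfp322a RNAi cells, against 8.05 and 8.10 in control RNAi cells, a 1.37-fold rise (change 0.46 ± 0.08, limma adjusted p = 0.0109). The brighter probe set 1428029_a_at gave 12.10 and 12.15 in Zfp322a RNAi cells, against 12.23 and 12.27 in control RNAi cells, and did not pass (change -0.13, interval -0.31 to 0.06, limma adjusted p = 0.324). The rise of H2az2 thus rested on a single probe set.

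The macroH2A genes encode H2A variants with a large domain outside the nucleosome core. Macroh2a1 (1424572_a_at) gave log2 values of 10.73 and 10.78 in Zfp322a RNAi cells, against 10.93 and 11.10 in control RNAi cells (change -0.26 ± 0.09, limma adjusted p = 0.0996). Macroh2a2 (1426363_x_at) gave 8.0 and 7.98 in Zfp322a RNAi cells, against 8.48 and 8.23 in control RNAi cells (change -0.37 ± 0.10, limma adjusted p = 0.0561). Both lay lower on each Zfp322a RNAi array, as did 32.4% of all probe sets, and neither passed the test. The 2 probe sets of Macroh2a3 differed in sign (-0.26 and 0.16) and did not pass.

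H2ax and the genes for H3.3, the H3 variant placed outside replication, did not pass the test either. H2ax (1416746_at) gave log2 values of 11.12 and 11.08 in Zfp322a RNAi cells, against 11.00 and 10.99 in control RNAi cells (change 0.11, interval -0.08 to 0.29, limma adjusted p = 0.400). H3f3b (1430357_at) gave 7.75 and 7.67 in Zfp322a RNAi cells, against 7.09 and 7.43 in control RNAi cells (change 0.45 ± 0.12, limma adjusted p = 0.0523). H3f3a (1442087_at) gave 7.90 and 7.80 in Zfp322a RNAi cells, against 7.99 and 8.07 in control RNAi cells (change -0.18 ± 0.08, limma adjusted p = 0.196). The groups did not overlap for any of the 3 genes, on opposite sides for H3f3b and H3f3a. Such a separation was common, with 25.1% of all probe sets above and 32.4% below. H2al2a, a histone gene of the testis, gave a change of -0.30 ± 0.10 that did not pass (limma adjusted p = 0.0795).

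Of the 24 genes, 9 were read by more than 1 probe set. The sign was shared by all single-symbol probe sets of 4 genes (H1f2, H2ac19, H2aw and H2az1). It differed for 5 genes (H1f7, H2aj, H2az2, H2bc21 and Macroh2a3). Of the 35 probe sets, 8 ended in _x_at or _s_at, which marks possible binding to related transcripts, and 2 of the 9 called probe sets were among these.

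**Figure D3:**
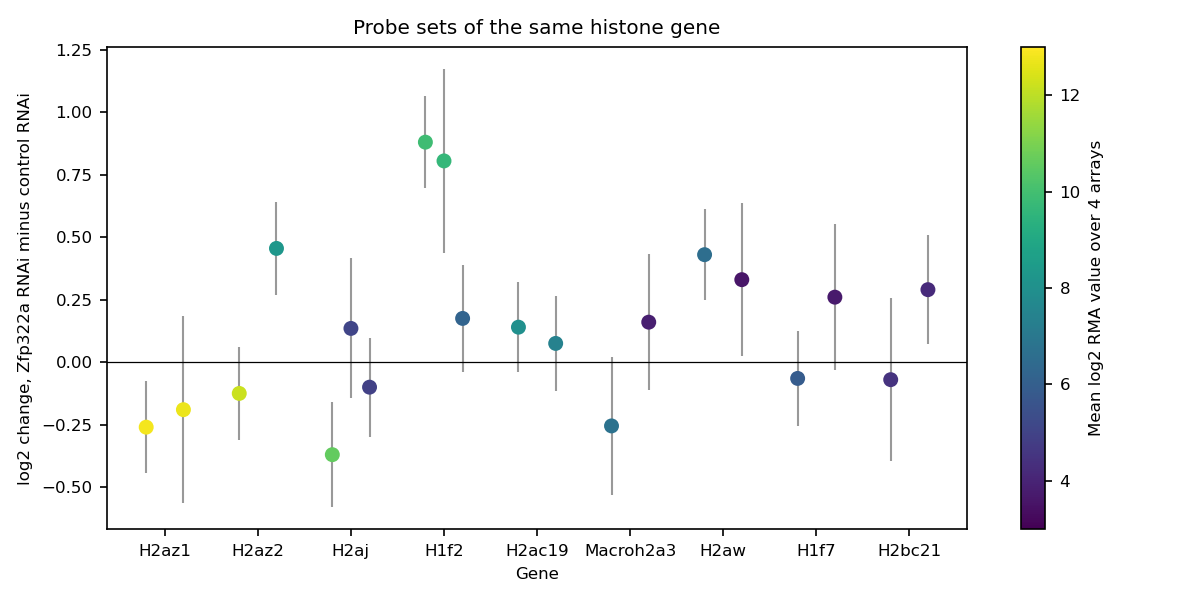
Log2 change, Zfp322a RNAi minus control RNAi, of each probe set of the 9 histone genes with more than 1 probe set, with the 95% interval from limma as a bar and the mean log2 value over 4 arrays as colour. The points of H2az2 stand at -0.13 and 0.46 on either side of 0, whereas the 3 points of H1f2 stand at 0.88, 0.81 and 0.18 on the same side.

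Many replication-dependent genes are near-identical in sequence, and 27 probe sets carried several symbols with at least 1 histone gene among them. Such a probe set reads a group of genes and names none. Of 19 such probe sets for cluster genes 10 rose and 2 fell, with a median change of 0.39, and of 8 for variant genes 2 rose and 1 fell. The shares were 52.6% higher and 10.5% lower for the clusters and 25.0% higher and 12.5% lower for the variants, beside 10.6% higher and 9.47% lower over all probe sets, so that the shares of lower calls lay near that of all probe sets. These probe sets were added after the data were seen.

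H4 genes were read in this way alone. Of the 5 probe sets for H4 genes 4 rose, beside 10.6% of all probe sets, and the changes of all 5 lay between 0.34 and 0.93. All 5 carry the same list of symbols, so that they are repeated readings of the same group of genes. Among those that rose, 1422947_at was dim (mean 4.31). The probe set 1424854_at, which names H4c1 and other H4 genes, gave log2 values of 9.20 and 9.19 in Zfp322a RNAi cells, against 8.29 and 8.25 in control RNAi cells, a 1.90-fold rise (limma, change 0.93 ± 0.08, adjusted p = 0.00162). For H2B, 3 of 6 probe sets rose and 0 fell. The brightest of those shared by H2bc8, H2bc6 and H2bc4 (1418072_at) gave 11.35 and 11.31 in Zfp322a RNAi cells, against 10.09 and 9.96 in control RNAi cells. This was a 2.47-fold rise (change 1.31 ± 0.08, limma adjusted p = 0.00111). Dimmer probe sets of the same symbols did not rise. Their changes were 0.015 (1440330_at, mean 3.65, limma adjusted p = 0.924) and -0.11 (1445565_at, mean 5.42, limma adjusted p = 0.425).

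The H3 probe sets of several symbols disagreed among themselves. The probe set 1422155_at, which names H3c2, H3c7 and other H3 genes, gave log2 values of 7.84 and 7.74 in Zfp322a RNAi cells, against 5.80 and 5.95 in control RNAi cells, a 3.77-fold rise (limma, change 1.92 ± 0.09, adjusted p = 0.000935). The probe set 1460314_s_at, which also names H3c2 and H3c7 among others, gave 9.06 and 9.09 in Zfp322a RNAi cells, against 9.72 and 9.91 in control RNAi cells, and fell to 59.9% of the control level (change -0.74 ± 0.09, limma adjusted p = 0.00436). For H2A, the probe set 1438009_at, which names H2ac4 and other H2A genes, gave 13.61 and 13.64 in Zfp322a RNAi cells, against 13.93 and 13.97 in control RNAi cells, and also fell (change -0.33 ± 0.08, limma adjusted p = 0.0309). So the direction of the clusters was not shared by every probe set.

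Among the variants, the probe sets shared by H3f3a, H3f3b and related sequences gave 0.43 and 0.45 for the 2 that rose (limma adjusted p = 0.0128 and 0.0125), and 0.21, 0.14 and -0.01 for those that did not pass. The probe set shared by Macroh2a2 and Macroh2a3 (1421612_a_at) gave log2 values of 7.55 and 7.50 in Zfp322a RNAi cells, against 7.89 and 7.93 in control RNAi cells, and fell to 76.6% of the control level (change -0.39 ± 0.08, limma adjusted p = 0.0184). Those shared by H2az1 and Gm8203 differed in sign and did not pass. The brighter (1416415_a_at) gave 0.10 (limma adjusted p = 0.417) and the other (1456032_x_at) -0.075 (limma adjusted p = 0.83). The negative changes on the single-symbol probe sets of H2az1, which did not pass the test, were thus not shared by every probe set.

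The promoters were read to set the called genes beside each other. The promoter table from RefSeq (build GRCm38.p6) held 20 of the 24 genes, with a window of 250 bases before and 50 bases after each start. It was searched on both strands for the TATA box (TATAAA), for the box written CCAAT and for the octamer (ATTTGCAT), which is bound by POU factors such as Oct4 and is known from H2B promoters. These motifs do not overlap each other in the sequences below. CCAAT stood in 9 of 9 cluster promoters and 7 of 11 variant promoters, beside 37.4% of all 32851 promoters of the table. TATAAA stood in 4 of 9 cluster promoters and 1 of 11 variant promoters (H3f3b), beside 13.6% of all. The octamer stood in 2 of 9 cluster promoters (H2aw and H2bc18) and 1 of 11 variant promoters (H3f3b), beside 1.74% of all. A match is a description of letters and says nothing of what binds there.

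The 120 bases before the start are shown for the 7 of 8 called genes that the table holds, to show the letters behind these counts. Capitals mark these motifs, also where they are read from the other strand (ATTGG for the CCAAT box and, for the octamer, ATGCAAAT). H1f2, H2bc18, H2aw and H2bc22 rose, H1f10 and H2aj fell, and the probe sets of H2az2 differed.
H1f2 (chr13:23738687-23738806, plus strand): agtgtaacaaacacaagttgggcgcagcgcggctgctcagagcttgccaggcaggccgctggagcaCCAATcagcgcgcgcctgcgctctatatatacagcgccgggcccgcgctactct
H2bc18 (chr3:96269580-96269699, plus strand): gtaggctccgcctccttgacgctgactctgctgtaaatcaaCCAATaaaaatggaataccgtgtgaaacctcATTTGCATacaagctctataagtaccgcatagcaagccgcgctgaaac
H2aw (chr11:58954565-58954684, plus strand): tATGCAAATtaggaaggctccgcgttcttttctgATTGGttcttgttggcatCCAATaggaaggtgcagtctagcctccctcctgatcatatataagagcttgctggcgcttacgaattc
H2bc22 (chr13:21787368-21787487, plus strand): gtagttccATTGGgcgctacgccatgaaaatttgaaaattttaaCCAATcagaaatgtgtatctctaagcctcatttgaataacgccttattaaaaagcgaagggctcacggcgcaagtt
H1f10 (chr6:87981483-87981602, minus strand): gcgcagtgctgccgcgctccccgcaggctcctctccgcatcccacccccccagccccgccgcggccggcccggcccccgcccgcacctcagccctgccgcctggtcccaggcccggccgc
H2aj (chr6:136808128-136808247, plus strand): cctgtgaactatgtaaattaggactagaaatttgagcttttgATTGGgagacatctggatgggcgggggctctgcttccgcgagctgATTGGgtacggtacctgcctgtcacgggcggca
H2az2 (chr11:6444444-6444563, minus strand): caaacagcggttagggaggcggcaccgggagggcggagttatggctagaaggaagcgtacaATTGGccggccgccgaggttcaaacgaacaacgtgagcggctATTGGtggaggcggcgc
In this stretch H1f10 had none of the motifs. CCAAT in the strand of the gene stood in the 4 cluster genes that rose, with a further copy from the other strand in H2aw and H2bc22, and also in cluster genes that did not pass the test (H1f4, H1f6, H3c4 and H3c11) and in the variants H2az1 and H3f3b.

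Genes that serve histone supply were read from lists, with the brightest probe set of each gene. Over all 18193 genes read in this way 12.2% were higher and 11.5% lower, with a median change of -0.04. Of 30 measured genes for expression and processing of histone mRNA, 6 rose and 6 fell (median change -0.03). Slbp, which encodes the stem-loop binding protein, gave log2 values of 11.80 and 11.86 in Zfp322a RNAi cells, against 11.53 and 11.54 in control RNAi cells, a 1.23-fold rise (limma, change 0.30 ± 0.08, adjusted p = 0.043). Npat, the cyclin E-CDK2 target that activates histone gene transcription, gave 10.43 and 10.34 in Zfp322a RNAi cells, against 9.73 and 9.59 in control RNAi cells, a 1.65-fold rise (change 0.73 ± 0.09, limma adjusted p = 0.00405). Ccne2, which encodes cyclin E2, rose by 1.16, Tut4, which encodes a terminal uridylyltransferase, by 0.72 and the cleavage factor gene Cstf2 by 0.59. The genes with the largest falls were Cpsf3 (-0.74), which encodes the nuclease that cuts histone pre-mRNA, E2f1 (-0.46), Nelfe (-0.44), which encodes a subunit of an elongation factor, and Snrpd3 (-0.40), which encodes an Sm protein of the spliceosome and of the U7 particle.

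Of 30 measured histone chaperone and exchange genes 3 rose and 2 fell (median change -0.07). Over all genes 12.2% were higher and 11.5% lower, and counts this small are not read as differing from these shares. Asf1a, which encodes a chaperone of H3 and H4, rose by 0.64, the remodeller gene Ino80 by 0.63 and Ubn1, a partner of HIRA in H3.3 deposition, by 0.48. Chaf1b, which encodes a subunit of the CAF-1 complex that loads H3 and H4 behind the replication fork, gave log2 values of 8.69 and 8.74 in Zfp322a RNAi cells, against 9.51 and 9.81 in control RNAi cells. It fell to 51.9% of the control level (limma, change -0.95 ± 0.11, adjusted p = 0.00399). Znhit1, a subunit gene of the complex that exchanges H2A.Z, changed by -0.29 (limma adjusted p = 0.0421).

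Of 37 measured S phase and DNA replication genes 3 rose and 15 fell, beside 12.2% and 11.5% of all genes, with a median change of -0.27. The largest falls were those of Tk1, a thymidine kinase gene (-0.67), Pold1, for the catalytic subunit of DNA polymerase delta (-0.61), Rfc2, for a clamp loader subunit (-0.60), and Lig1, a DNA ligase gene (-0.54). Dbf4, for the activator of the CDC7 kinase, rose by 0.49, the origin recognition gene Orc6 by 0.47 and Gins3, a helicase subunit gene, by 0.36. So the cluster histone probe sets, which rose more often than they fell, and the replication genes, which fell more often than they rose, had medians of opposite sign on the same 4 arrays.

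**Figure D4:**
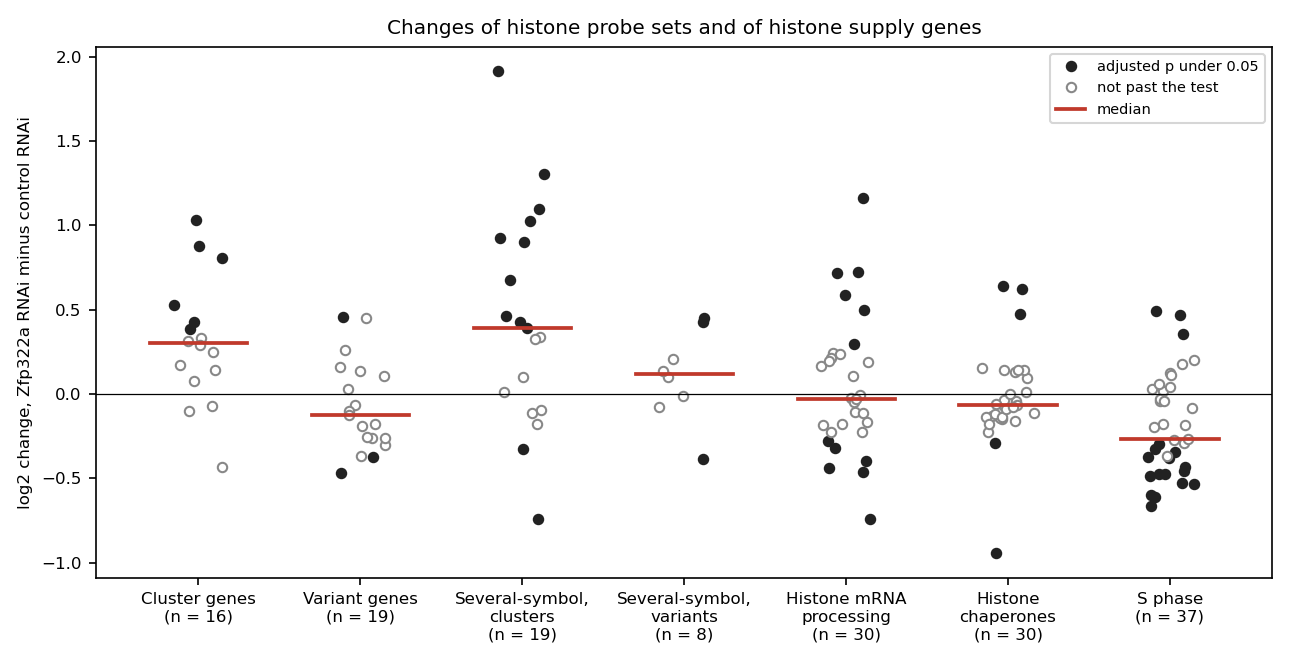
Log2 change, Zfp322a RNAi minus control RNAi, of the histone probe sets of each class and of the genes of 3 lists (brightest probe set of each gene), with filled points for a limma adjusted p under 0.05 and a bar at the median. The medians were 0.30 for the clusters, -0.13 for the variants, 0.39 and 0.12 for the probe sets of several symbols, and -0.03, -0.07 and -0.27 for the 3 lists.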

How the data were processed

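Total RNA of 4 E14 samples was hybridised to 1-colour Affymetrix Mouse Genome MG430 2.0 arrays, 2 of Zfp322a RNAi and 2 of control RNAi. The deposited values are log2 expression levels that the authors made with RMA, which subtracts background, makes the quantiles of the arrays alike and summarises each probe set. Any shift shared by all genes is therefore hidden. No source used here gives the RMA version, the log2 scale was taken from the values themselves, and no detection calls were used. The labels and the transfection methods give a puromycin selection of 3 days, whereas the array methods give a longer one.

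The platform annotation named the probe sets (34945 with 1 symbol, 932 with several, 9160 with none). Older symbols came from the RefSeq gene table (GRCm38.p6) through the Entrez ID. Genes whose older symbol began with Hist1 to Hist4 formed the clusters, the others the variants. The members and lists were chosen with earlier results of these data known. No source gives a genome build for the arrays.

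Zfp322a RNAi was compared with control RNAi with R 4.3.3 and limma 3.58.1. A linear model with the group as its only term was fitted (lmFit, eBayes), which left 2 residual degrees of freedom. Its two-sided p-values were adjusted by Benjamini-Hochberg over all 45037 probe sets, with a threshold of 0.05. Errors are standard errors and intervals 95% intervals of this model, and the number of arrays limits the precision. An exact permutation test cannot go below 0.333 with 2 arrays against 2. The fit was tested on simulated data. The named genes are Zfp322a, all variants, the cluster probe sets past the test, the brightest cluster probe set of each family, each gene with more than 1 probe set, and in each list up to 4 genes in each direction past the test, with Slbp and Npat. Other genes named were chosen after their values were seen. Alternatives were array centring, quantile normalization, dim probe sets left out, an intensity trend of the variance, the brightest or the mean probe set of each gene, _x_at and _s_at probe sets left out, a replicate block, each array left out, the 1.5-fold rule of the methods, and, after the data were seen, probe sets of several symbols added.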

Additional observations from a re-analysis of the deposited data

How the results depend on the processing

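Without any 1 array, a group held 1 array, assumed to vary like the other group, and 0 of 45037 probe sets passed limma's adjusted p. Each count for the clusters, the variants and the 3 lists was then 0, which says nothing of how stable the calls are, with smallest adjusted p values of 0.11 to 0.138. Effect sizes are therefore given for these fits. The median change lay between 0.21 and 0.33 in the clusters and between -0.14 and -0.10 in the variants, and the change of Zfp322a between -1.67 and -1.27 (adjusted p 0.11 to 0.145). The labels do not say whether the replicate numbers pair the samples, and no source ties equal numbers to each other. The deviations of replicate 1 correlated by 0.0561 between the groups over all probe sets. This cannot decide the question, since a pairing that moved few probe sets would leave it small. With the number as a replicate block, limma called 0 of 45037 probe sets (13586 with an unadjusted p under 0.05, smallest adjusted p 0.0513), so that each count was 0, and Zfp322a changed by -1.47 (adjusted p = 0.0523).

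With all arrays, 4 to 7 cluster probe sets or genes were higher under centring, quantile normalization, the intensity trend, the brightest or mean probe set of each gene, and the removal of dim or of _x_at and _s_at probe sets, and under these settings both medians kept their sign. The variant counts were the least stable. As reported, 1 of 19 was higher and 2 were lower. The higher count was 2 after centring, after quantile normalization, without dim probe sets, with the trend and without _x_at and _s_at probe sets. The lower count was 5 of 12 without dim probe sets, 5 of 19 with the trend and 4 of 13 with the brightest probe set of each gene. Lower over the whole array were then 5155 of 22530, 5609 of 45037 and 2618 of 18193. The variant median of -0.13 was -0.10 after centring, -0.22 without dim probe sets and -0.26 with the brightest probe sets. With the trend 1 cluster probe set was lower, 19 in place of 12 processing genes passed in either direction and 9 in place of 5 chaperone genes. Calls rose over the whole array too, to 6011 higher and 5609 lower, in place of 4774 and 4266. H2az2 reversed to -0.13 with its brightest probe set (adjusted p = 0.237) and was 0.17 as a mean of its probe sets (adjusted p = 0.103), and H2aj was then -0.11 (adjusted p = 0.261). At 1.5-fold without a test, 3 cluster probe sets were higher, and 0 variants were higher and 0 lower. In either direction 5 processing, 3 chaperone and 3 S phase genes passed, beside 4.67% higher and 2.64% lower of all probe sets. With probe sets of several symbols, 16 of 35 cluster probe sets were higher and 2 lower, 3 of 27 variant probe sets were higher, and the variant median was -0.065. Centring moved the median of all probe sets by 0.03. The causes were not tested.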
